A study of Homo sapiens with 6 samples.

Results

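The DNAJ genes encode the J-domain proteins, also called HSP40 cochaperones, and their RNA was read here in the human osteosarcoma cell line 143B. Members were the protein-coding genes of the deposited count table whose symbol is DNAJA, DNAJB or DNAJC followed by a number, which gave 42 of the 16114 protein-coding genes. Of these, 4 belong to class A, 11 to class B and 27 to class C. The rule used no measured value. Per the labels' protocols, 143B cells were cultured for 24 h in 1 plate of 6 wells. Celastrol, a triterpene from Tripterygium wilfordii, was then given to 3 wells for a further 24 h, and the other 3 wells, chosen at random as controls, were kept for the same time. The labels give neither the dose nor whether the control wells received a vehicle, and no genetic change is named for either group. Each library is 1 well, so p-values measure the spread between wells of 1 plate, which may be technical.

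J-domain proteins bring client proteins to HSP70 chaperones and speed up the splitting of ATP by HSP70 through a conserved histidine-proline-aspartate motif. Class A proteins carry the J domain, a glycine- and phenylalanine-rich region and a zinc-binding region, class B proteins lack the zinc-binding region, and class C proteins share only the J domain. Cells place different members in the cytosol and nucleus, the endoplasmic reticulum (ER), the mitochondria and on vesicles. Some class A and class B genes are targets of HSF1, the main transcription factor of the heat shock response. Celastrol is known as a compound that can set off that response in cultured cells.

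Library totals lay between 38.4 and 39.5 M counts. At this depth 0 counts in a library still allow 3, which is 0.076 to 0.078 CPM (counts scaled by the library total), for counting error alone. The groups were separated by the first principal component of all genes (62.6% of the variance), on which the wells nearest to the opposite group were celastrol replicate 2 and control replicate 1. Control replicate 3 stood apart in heat shock genes, as given below beside DNAJB1. Of the markers of the osteoblast and mesenchymal lineage, VIM averaged 2541 CPM with celastrol and 3411 CPM in controls and SPARC 365 CPM with celastrol and 364 CPM in controls. RUNX2 averaged 18.2 CPM with celastrol and 33.9 CPM in controls and ALPL 1.37 CPM with celastrol and 3.11 CPM in controls. COL1A1 averaged 13.1 CPM with celastrol and 8.29 CPM in controls, while COL1A2, SP7 and BGLAP had 0 to 6 counts in every well. CDH1, KRT19, PTPRC, PECAM1, VWF and CDH5, markers of epithelium, blood and endothelium, lay at 0 to 14 counts in every well, and EPCAM at 6.89 CPM with celastrol and 6.04 CPM in controls. In bulk RNA, fewer cells and less RNA per cell cannot be told apart.

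Promoter sequences are shown for 4 class A and class B members, because they differ in matches to the heat shock element, the short repeat to which HSF1 binds. RefSeq windows on GRCh38.p14, from 250 bases before a start site to 50 after it, were found for 39 of the 42 members (51 windows). An element of 2 units was searched as GAANNTTC or TTCNNGAA, each on both strands. An element of 3 units was searched as the same letters carried on by NNGAA after GAANNTTC or by NNTTC after TTCNNGAA, so that it contains the shorter one. Lower case letters run from 5′ to 3′ along the gene, and capitals mark the matches to the element of 2 units.
DNAJA1, chr9:33025023-33025322, plus strand: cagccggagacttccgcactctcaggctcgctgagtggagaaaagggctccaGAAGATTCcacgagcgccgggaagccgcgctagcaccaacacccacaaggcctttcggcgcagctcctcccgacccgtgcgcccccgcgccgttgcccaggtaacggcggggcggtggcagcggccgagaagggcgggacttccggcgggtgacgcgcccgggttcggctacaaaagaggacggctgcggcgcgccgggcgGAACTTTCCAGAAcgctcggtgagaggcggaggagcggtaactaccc
DNAJB1, chr19:14518348-14518647, minus strand: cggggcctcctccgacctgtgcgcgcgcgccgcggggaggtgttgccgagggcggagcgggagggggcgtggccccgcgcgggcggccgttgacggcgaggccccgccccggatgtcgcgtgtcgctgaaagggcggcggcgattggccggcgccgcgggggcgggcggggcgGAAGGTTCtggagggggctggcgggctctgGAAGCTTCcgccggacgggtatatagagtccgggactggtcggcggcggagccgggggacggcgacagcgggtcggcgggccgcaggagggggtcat
DNAJB6, chr7:157336754-157337053, plus strand: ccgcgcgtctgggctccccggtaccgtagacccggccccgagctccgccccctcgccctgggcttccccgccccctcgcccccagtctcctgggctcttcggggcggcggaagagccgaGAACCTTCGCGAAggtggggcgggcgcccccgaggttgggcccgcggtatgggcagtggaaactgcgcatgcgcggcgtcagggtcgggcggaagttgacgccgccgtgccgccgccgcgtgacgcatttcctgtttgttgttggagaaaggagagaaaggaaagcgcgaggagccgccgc
DNAJB5, chr9:34990040-34990339, plus strand: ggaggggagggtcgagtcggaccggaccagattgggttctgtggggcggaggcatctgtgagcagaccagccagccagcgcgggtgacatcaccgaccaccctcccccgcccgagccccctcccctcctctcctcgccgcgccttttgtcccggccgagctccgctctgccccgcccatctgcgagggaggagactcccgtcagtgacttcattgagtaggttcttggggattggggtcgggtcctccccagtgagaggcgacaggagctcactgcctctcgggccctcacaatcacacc

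DNAJA1 holds 3 such matches, 2 of them overlapping just after the start site at bases 4 to 11 and 9 to 16. DNAJB1 holds 2, at -77 to -70 and -47 to -40, in the 1 of its 3 windows that is shown. That window was picked for its number of such matches, while the other genes shown have 1 window each. DNAJB6 holds 2 overlapping matches between -131 and -119, and DNAJB5 holds none in this window. The DNAJB5 window lies inside the gene, which RefSeq starts at base 34989745, and the bases before that start were not searched. The element of 3 units was present in 2 of the 51 member windows, those of DNAJA1 and DNAJB6, against 0.49% of all 35116 promoter windows. The element of 2 units was present in 9 of the 51 member windows, which belong to 8 members (DNAJA1, DNAJA4, DNAJB1, DNAJB4, DNAJB6, DNAJB7, DNAJC15 and DNAJC6), against 13.5% of all windows. A match is a description of letters and not of binding. The ER stress element, CCAAT and CCACG parted by NNNNNNNNN and searched on both strands, was present in 0.0769% of all windows and in no member's window, which says only that these letters are not there.

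Of the 42 members, 40 passed the filter on low counts and were compared with edgeR's quasi-likelihood test over 15387 genes. With celastrol 15 rose and 2 fell at an adjusted p under 0.05, that is 37.5% higher and 5% lower. Over all genes tested, 23.6% were higher and 24.8% lower with celastrol, 48.4% in all. The members that rose were DNAJA1, DNAJA3, DNAJB12, DNAJB14, DNAJC2, DNAJC5, DNAJC7, DNAJC9, DNAJC10, DNAJC11, DNAJC13, DNAJC15, DNAJC16, DNAJC28 and DNAJC30, and those that fell were DNAJB5 and DNAJC4. The members' median log2 fold change was 0.177, against -0.00024 over all genes tested, and 26 of the 40 lay above 0. Celastrol wells did not overlap control wells in 20 members that were higher and 3 that were lower, where 28.4% and 28.6% of all genes tested did so. The count of lower members depended on single wells. It was 1 without celastrol replicate 2, celastrol replicate 3 or control replicate 3, where 21.9%, 20.3% and 21.2% of all genes tested were lower. It was 4 without control replicate 1 (25.8% of all genes) and 6 without both celastrol replicate 2 and control replicate 1 (25.9% of all genes).

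By class, 2 of 4 tested members rose in class A (median log2 fold change 0.071). In class B, 2 of 9 rose and 1 fell (median 0.110). In class C, 11 of 27 rose and 1 fell (median 0.187). By compartment, 5 of the 7 mitochondrial members rose and 1 fell (median 0.396), the largest share of the 4 compartments. Of the 11 ER members 4 rose (median 0.122), of the 4 vesicle and endosome members 2 rose (median 0.467), and of the 17 tested members of the cytosol and nucleus 4 rose and 1 fell (median 0.089). Single wells moved several of these medians by over 1.5 times. The class A median was 0.035 without control replicate 1 and 0.043 without celastrol replicate 3. The class B median was 0.024 without control replicate 1, 0.068 without celastrol replicate 3 and 0.214 without control replicate 3. The ER median was 0.030 without control replicate 1 and 0.214 without control replicate 3. The cytosol and nucleus had 0.049 without control replicate 1, 0.148 without celastrol replicate 2 and 0.152 without control replicate 2. The vesicle median, to which the barely detected DNAJC5G contributes, was 0.277 without celastrol replicate 2, 0.281 with a filter of 10 CPM in 3 libraries and 0.201 with limma on log2(FPKM + 1). The shares over all genes tested were 23.6% higher and 24.8% lower. Class B (22.2% higher) and the cytosol and nucleus (23.5% higher) lay near the first of these. The difference between classes or compartments was not tested. A Gene Ontology term in the deposited table named the same compartment for 36 of the 40 members placed in one. DNAJC4, DNAJC5G, DNAJC16 and DNAJC28 lacked it, and the mitochondrial count without DNAJC4 and DNAJC28 was 4 higher of 5 tested.

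**Figure D1:**
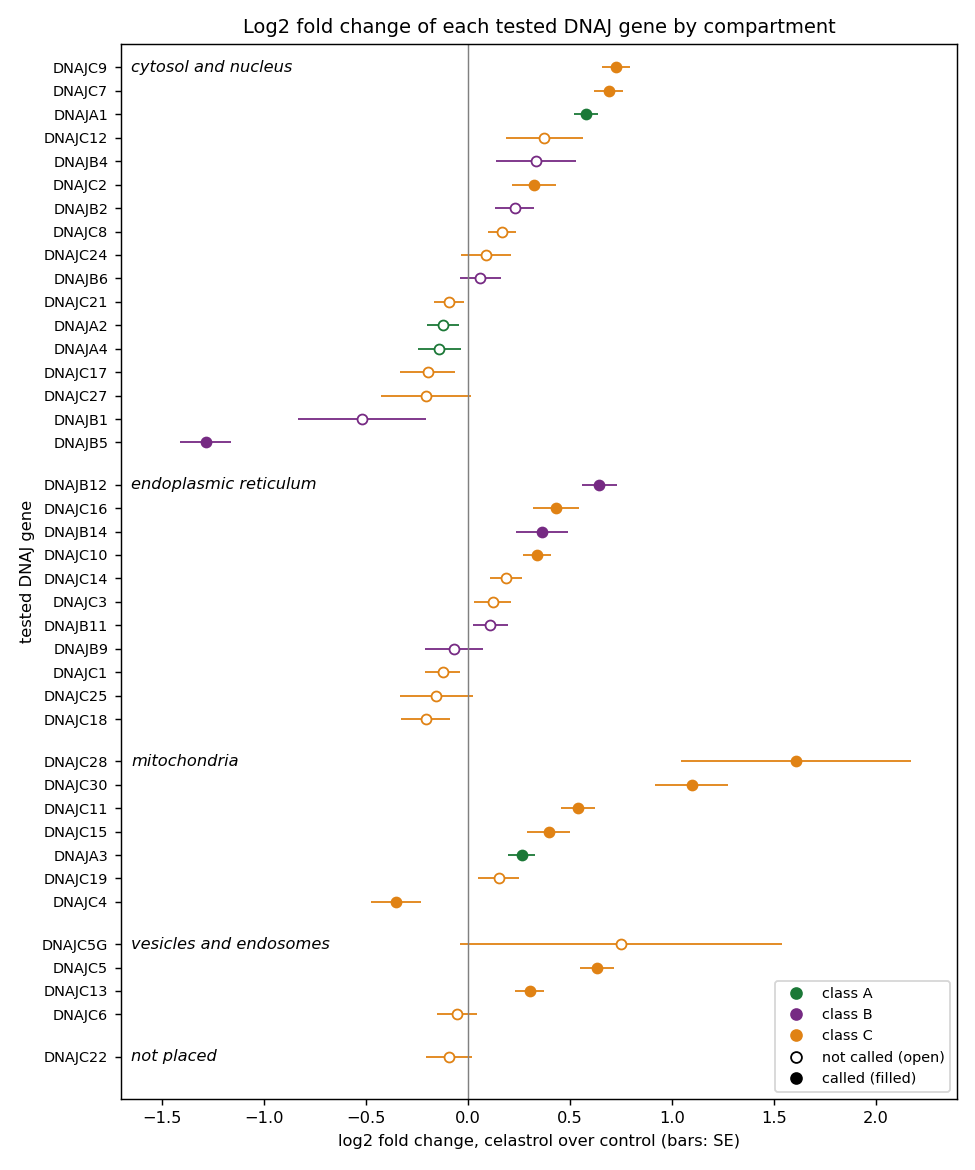
Log2 fold change of celastrol over control (horizontal axis, bars show the SE) for the 40 tested DNAJ genes, one row each, ordered within 4 compartments, with DNAJC22, which was not placed, at the bottom, and coloured by class. Filled points passed the adjusted p of 0.05. Mitochondrial members lie mostly to the right of 0, and DNAJB5 lies farthest to the left at -1.29.

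DNAJA1, a general cochaperone of cytosolic HSP70 that takes newly made and damaged proteins, was the most abundant member per gene length. In mean CPM DNAJC5 was higher, at 362 with celastrol and 233 in controls, against 331 and 221 for DNAJA1. DNAJA1 lies on chromosome 9 from 33025273 to 33039907 (NCBI gene 3301, GRCh38.p14). Its wells held 324, 330.5 and 339 CPM with celastrol, against 221, 209.5 and 234 CPM in controls. All celastrol wells lay above all control wells. The log2 fold change was 0.58 ± 0.059 (SE, edgeR adjusted p = 4.07e-07), a 1.496-fold increase that passed the test in every alternative tried. Per length, DNAJA1 averaged 145 ± 2.44 FPKM with celastrol and 94.0 ± 4.61 FPKM in controls, a scale that divides counts by gene length and library total (SD, n = 3 wells each), the highest of all members in both groups. RefSeq lists 6 pseudogenes of DNAJA1, and the handling of reads that fit such copies is not stated by the labels. The same holds for DNAJB6 with 8 pseudogenes, DNAJC19 with 9, DNAJC8 with 3, DNAJB1 with 2, and DNAJB12, DNAJC2, DNAJC9 and DNAJC17 with 1 each.

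The other 2 cytosolic class A members did not pass the test with all wells. DNAJA2, a close relative of DNAJA1 with partly shared clients, averaged 119 ± 4.54 CPM with celastrol and 129 ± 15.5 CPM in controls (SD, n = 3 each, log2 fold change -0.12, edgeR adjusted p = 0.209). DNAJA4 averaged 29.4 ± 0.962 CPM with celastrol and 32.4 ± 4.67 CPM in controls (log2 fold change -0.14, edgeR adjusted p = 0.286). In both genes control replicate 1 was the lowest control well, and without it both passed as lower (edgeR adjusted p = 0.00581 for DNAJA2 and 0.0214 for DNAJA4). Over all alternatives the adjusted p ran from 0.00581 to 0.652 for DNAJA2 and from 0.0214 to 0.756 for DNAJA4. The make-up of class A differed accordingly: DNAJA1 held 59.7 ± 0.57% of the summed class A FPKM with celastrol and 50.8 ± 1.64% in controls, and DNAJA2 held 16.5 ± 0.493% with celastrol and 22.8 ± 2.03% in controls (SD, n = 3 each). Summed class A levels were 239.9, 239.8 and 248 FPKM with celastrol, against 180.2, 182 and 193 FPKM in controls, without overlap.

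DNAJB1, the classical heat-inducible HSP40, did not pass the test. Its wells held 98.3, 115 and 104 CPM with celastrol, against 106, 129.5 and 219 CPM in controls, so the groups overlapped and control replicate 3 was the highest. The log2 fold change was -0.52 ± 0.31 (SE, edgeR adjusted p = 0.249). Without control replicate 3 it was -0.16 (edgeR adjusted p = 0.179), and over all alternatives the adjusted p ran from 0.127 to 0.441. The same well was high in other heat-inducible genes, which were looked at after the values of DNAJB1 were seen. HSPA6, an HSP70 made mainly under stress, had 7, 10 and 6 counts with celastrol, against 5, 5 and 620 counts in controls. HSPA1A, the stress-inducible cytosolic HSP70, had 14.5, 14.9 and 13.3 CPM with celastrol, against 13.5, 15.0 and 44.3 CPM in controls. Its near-identical copy HSPA1B had 27.9, 26.9 and 23.7 CPM with celastrol, against 36.9, 39.8 and 85.1 CPM in controls. All 3 genes were highest in control replicate 3. The part of this well in the DNAJB1 result was not tested beyond leaving it out. DNAJA1 in control replicate 3 was 234 CPM, against 221 and 209.5 CPM in the other controls.

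**Figure D2:**
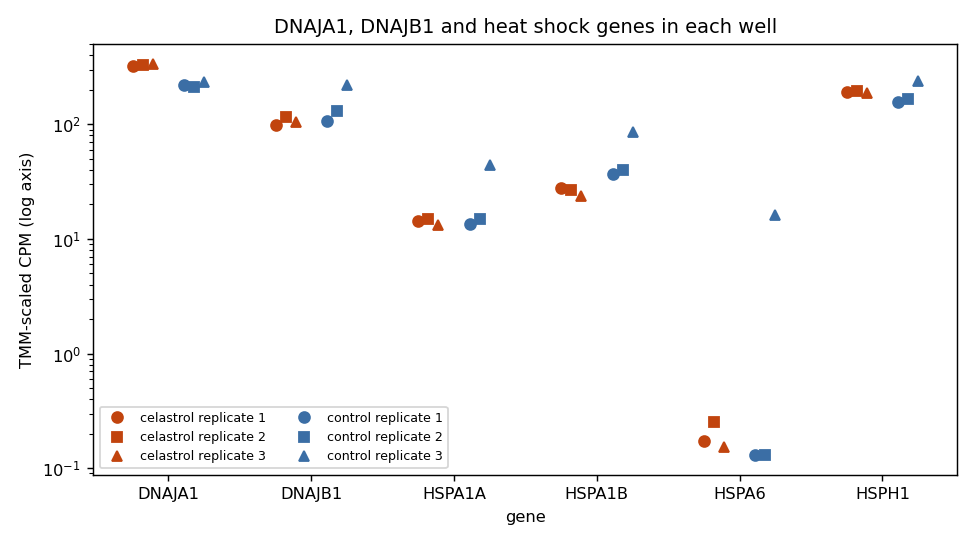
TMM-scaled CPM (log axis) of DNAJA1, DNAJB1, HSPA1A, HSPA1B, HSPA6 and HSPH1 in each well, with celastrol wells left of control wells and the marker shape giving the replicate. Control replicate 3 is the highest control well for all 6 genes, at 16.1 CPM for HSPA6, and only DNAJA1 has all celastrol wells above all control wells.

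DNAJB5, a class B member related to DNAJB1 and DNAJB4, fell most. Its wells held 11.5, 12.4 and 11.4 CPM with celastrol, against 24.7, 33.96 and 27.3 CPM in controls. Every celastrol well lay far below every control well. The log2 fold change was -1.29 ± 0.12 (SE, edgeR adjusted p = 2.28e-07), 2.44-fold lower, and the call held in every alternative tried. DNAJB5 lies on chromosome 9 from 34989745 to 34998900 (GRCh38.p14), at 3.46 FPKM with celastrol and 8.20 FPKM in controls, so it is a minor member per length in both groups. DNAJB4 averaged 5.98 ± 0.300 CPM with celastrol and 4.74 ± 1.16 CPM in controls (SD, n = 3 each, log2 fold change 0.33, edgeR adjusted p = 0.17). The estimate of DNAJB4 was thus of opposite sign to that of DNAJB5, while that of DNAJB1 was also below 0, at -0.52 (edgeR adjusted p = 0.249). Of these, the decrease of DNAJB5 alone passed the test. Whether the 3 genes differ was not tested.

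DNAJB6, a suppressor of protein aggregation, held 83.8, 70.8 and 87.6 CPM with celastrol, against 65.5, 87.7 and 79.1 CPM in controls. The wells overlapped (log2 fold change 0.06 ± 0.10, SE, edgeR adjusted p = 0.649). DNAJB2, which also binds ubiquitin chains, averaged 35.2 ± 1.93 CPM with celastrol and 30.0 ± 2.94 CPM in controls (SD, n = 3 each). Its celastrol wells lay above its control wells, with a log2 fold change of 0.23 that missed the threshold (edgeR adjusted p = 0.0533, 0.0236 to 0.189 over the alternatives). With all wells it passed as higher in scaling by library size alone (0.0236) and both limma fits (0.0284 and 0.0278), which share that scaling. It passed too with DESeq2 (0.0496) and the replicate block (0.0397). It also passed without celastrol replicate 2 (0.0499) and without control replicate 3 (0.0278). DNAJB7 had 0, 7 and 0 counts with celastrol and 4, 2 and 0 counts in controls, and was not tested. Summed class B levels overlapped, at 147, 149 and 155 FPKM with celastrol and 126, 147 and 172 FPKM in controls.

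Among the class C members of the cytosol and nucleus, DNAJC9 and DNAJC7 rose most. DNAJC9, a chaperone of newly made histones, held 110.5, 102 and 111 CPM with celastrol, against 63.6, 63.3 and 68.3 CPM in controls. DNAJC7, which binds both HSP70 and HSP90 through tetratricopeptide repeats, held 102, 100.4 and 110.4 CPM with celastrol, against 64.4, 61.9 and 67.4 CPM in controls. In both genes every celastrol well lay above every control well with a wide gap. Log2 fold changes were 0.73 ± 0.069 for DNAJC9 and 0.69 ± 0.070 for DNAJC7 (SE, edgeR adjusted p = 2.08e-07 and 3.91e-07), and both calls held in every alternative tried. DNAJC9 lies on chromosome 10 from 73232272 to 73247255 and DNAJC7 on chromosome 17 from 41976435 to 42017439 (GRCh38.p14).

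Both genes share exon bases with genes on the opposite strand in the GENCODE 29 annotation, and the labels do not state whether counting used the strand. Of DNAJC9's exon bases 25.8% lie within FAM149B1, which itself was lower with celastrol (log2 fold change -0.31, edgeR adjusted p = 0.0467). Of DNAJC7's, 18.8% lie within CNP (0.19, edgeR adjusted p = 0.0362) and 18.7% within NKIRAS2 (0.41, edgeR adjusted p = 0.000915), both higher with celastrol. In all, 7 members shared at least 10% of their exon bases in this way, and without them 12 members of 34 tested were higher and 2 lower.

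DNAJC2, which works on the ribosome with the HSP70 relative HSPA14, averaged 46.1 ± 5.03 CPM with celastrol and 36.8 ± 5.27 CPM in controls (SD, n = 3 each, log2 fold change 0.32, edgeR adjusted p = 0.0182). The call was lost without celastrol replicate 3 (edgeR adjusted p = 0.133) and without control replicate 1 (0.0522), in a range over alternatives of 0.00206 to 0.133. DNAJC8, which is found with the splicing machinery, ranked 3 in FPKM in both groups, at 54.7 ± 0.445 FPKM with celastrol and 47.3 ± 3.20 FPKM in controls. Its wells did not overlap, but its log2 fold change of 0.17 missed the threshold (edgeR adjusted p = 0.0563, 0.0172 to 0.171 over the alternatives). With all wells DNAJC8 passed as higher with scaling by library size alone (adjusted p = 0.0177) and both limma fits (0.0194 and 0.0188), which share that scaling. It passed too with the replicate block (0.0353). It also passed without control replicate 3 (0.0172). DNAJC12, a cochaperone of the aromatic amino acid hydroxylases, had a log2 fold change of 0.38 (edgeR adjusted p = 0.108). It passed as higher in both limma fits on log2 FPKM (adjusted p = 0.0279), in a range over alternatives of 0.0279 to 0.294. DNAJC17, DNAJC21, DNAJC24 and DNAJC27 lay between -0.20 and 0.09 on the log2 scale and did not pass the test (adjusted p 0.245 to 0.58). DNAJC21, which acts in ribosome assembly, passed as lower without both celastrol replicate 2 and control replicate 1 (edgeR adjusted p = 0.0326).

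In the ER, DNAJB12, DNAJB14, DNAJC10 and DNAJC16 rose. DNAJB12, an ER membrane protein that recruits cytosolic HSP70 for the disposal of misfolded membrane proteins, held 69.5, 66.4 and 73.3 CPM with celastrol, against 50.5, 43.0 and 40.3 CPM in controls. All celastrol wells were higher, with a log2 fold change of 0.64 ± 0.087 (SE, edgeR adjusted p = 9.2e-06) that passed in every alternative tried. Its paralog DNAJB14 held 19.0, 17.9 and 15.0 CPM with celastrol, against 12.9, 14.7 and 12.8 CPM in controls. The gap between the groups was narrow there (log2 fold change 0.36 ± 0.13, SE, edgeR adjusted p = 0.0238). The call was lost without celastrol replicate 1 (0.13), celastrol replicate 2 (0.07) or control replicate 3 (0.0791), in a range of adjusted p from 0.0144 to 0.13. DNAJC16, which was placed in the ER without a deposited term, held 24.3, 21.3 and 26.6 CPM with celastrol, against 19.2, 18.1 and 16.3 CPM in controls (log2 fold change 0.43 ± 0.11, SE, edgeR adjusted p = 0.00439).

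The lumenal members were mixed. DNAJC10, a disulfide reductase of the ER lumen, averaged 144 ± 4.11 CPM with celastrol and 114 ± 8.78 CPM in controls (SD, n = 3 each, log2 fold change 0.34, edgeR adjusted p = 0.000461). DNAJB9, a target of the unfolded protein response that restrains the sensor IRE1, held 13.5, 11.5 and 13.2 CPM with celastrol, against 10.9, 13.3 and 15.7 CPM in controls. DNAJB11, an abundant lumenal partner of BiP, held 89.9, 96.6 and 101 CPM with celastrol, against 78.2, 87.0 and 101 CPM in controls. DNAJC3, which is also a target of that response, held 53.0, 58.8 and 50.6 CPM with celastrol, against 43.4, 50.8 and 55.0 CPM in controls. The wells of all 3 genes overlapped, and control replicate 3 was the highest control well in each. Their log2 fold changes were -0.07 for DNAJB9, 0.11 for DNAJB11 and 0.12 for DNAJC3 (edgeR adjusted p = 0.733, 0.299 and 0.29). Without control replicate 3, DNAJB11 passed as higher (edgeR adjusted p = 0.0403, 0.0403 to 0.854 over the alternatives).

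The remaining ER members DNAJC1, DNAJC14, DNAJC18 and DNAJC25 lay between -0.21 and 0.19 on the log2 scale and did not pass the test. DNAJC14, which is found in the ER membrane, came nearest (edgeR adjusted p = 0.0556, in a range of 0.021 to 0.203). With all wells it passed as higher with scaling by library size alone (adjusted p = 0.021) and both limma fits (0.03 and 0.0298), which share that scaling. It also passed without control replicate 1 (0.041). DNAJC18 passed as lower without both celastrol replicate 2 and control replicate 1 (0.046, in a range of 0.046 to 0.483). Summed ER levels were 134, 138 and 139.9 FPKM with celastrol, against 113, 118 and 128 FPKM in controls. DNAJB11 made up 43.1 ± 1.37% of that sum with celastrol and 44.4 ± 2.72% in controls (SD, n = 3 each), the largest share per length in both groups. This rank rests on gene length, for which the FPKM values imply 1640 bases in DNAJB11 and 20144 in DNAJC10. In CPM DNAJC10 was higher, at 144 with celastrol and 114 in controls, against 95.8 and 88.8 for DNAJB11.

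Of the 7 mitochondrial members, DNAJA3, DNAJC11, DNAJC15, DNAJC28 and DNAJC30 rose, DNAJC4 fell and DNAJC19 did not pass the test. DNAJC30, a small mitochondrial protein that associates with the respiratory machinery, held 11.8, 9.95 and 12.1 CPM with celastrol, against 6.89, 4.32 and 4.60 CPM in controls. This was the largest increase among members above a log2 CPM of 2, at 1.10 ± 0.18 on the log2 scale or 2.14-fold (SE, edgeR adjusted p = 6.81e-05), and it passed in every alternative tried. DNAJC30 lies on chromosome 7 from 73680918 to 73683453 (GRCh38.p14). DNAJC11, of the complex that bridges the outer and inner mitochondrial membranes, held 124, 116 and 132 CPM with celastrol, against 95.0, 87.6 and 73.8 CPM in controls. All its celastrol wells were higher (log2 fold change 0.54 ± 0.084, SE, edgeR adjusted p = 4.92e-05). Of DNAJC11's exon bases 42.9% lie within THAP3 on the opposite strand, which was lower with celastrol (log2 fold change -0.52, edgeR adjusted p = 0.00208).

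DNAJA3, the class A partner of the mitochondrial HSP70, held 135, 122 and 136 CPM with celastrol, against 113, 108 and 107 CPM in controls. Its log2 fold change was 0.26 ± 0.066 (SE, edgeR adjusted p = 0.00291), and the wells did not overlap. DNAJC15 and DNAJC19 are paralogs that can each serve the motor that pulls proteins into the mitochondrial matrix. DNAJC15 held 24.1, 27.2 and 30.0 CPM with celastrol, against 19.5, 21.0 and 21.3 CPM in controls (log2 fold change 0.40 ± 0.11, SE, edgeR adjusted p = 0.00486). Its call was lost without celastrol replicate 3 (0.0515, in a range of 0.00148 to 0.0515). DNAJC19 held 29.3, 28.7 and 34.1 CPM with celastrol, against 27.4, 25.2 and 30.3 CPM in controls, which overlapped (log2 fold change 0.15 ± 0.10, SE, edgeR adjusted p = 0.229). The call of DNAJC15 and its absence in DNAJC19 do not show that the paralogs differ, which was not tested.

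By edgeR with all wells, DNAJC28 had the largest fold change of the family, at the lowest level of any called member. It had 26, 30 and 33 counts with celastrol, against 8, 5 and 15 counts in controls, and is described here after its values were seen. The log2 fold change was 1.61 ± 0.56 (SE, edgeR adjusted p = 0.0248) and ran from 0.326 to 2.117 over the alternatives. It missed the threshold without any one of the celastrol wells and without control replicate 1 or 2 (adjusted p 0.0519 to 0.113), in a range of 0.00342 to 0.113. DNAJC4, the 1 mitochondrial member that fell, held 13.6, 12.7 and 11.6 CPM with celastrol, against 15.9, 15.5 and 16.9 CPM in controls. The wells did not overlap (log2 fold change -0.35 ± 0.12, SE, edgeR adjusted p = 0.022), but the call was lost without celastrol replicate 2 (0.0506), celastrol replicate 3 (0.0967) or control replicate 3 (0.0738), in a range of 0.0121 to 0.0967. Summed mitochondrial levels were 125, 117 and 129.7 FPKM with celastrol, against 103, 96.4 and 94.6 FPKM in controls.

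On vesicles and endosomes, DNAJC5 dominated. DNAJC5, the cysteine string protein of secretory vesicles, held 367, 358 and 361 CPM with celastrol, against 276, 208 and 216 CPM in controls. The celastrol wells lay close together and above all controls (log2 fold change 0.63 ± 0.085, SE, edgeR adjusted p = 2.14e-05), and the call held in every alternative tried. Per length it averaged 54.2 ± 0.825 FPKM with celastrol and 33.98 ± 5.48 FPKM in controls, rank 4 with celastrol and rank 7 in controls. DNAJC13, which acts in sorting on early endosomes, averaged 140.0 ± 9.50 CPM with celastrol and 114 ± 9.05 CPM in controls (SD, n = 3 each, log2 fold change 0.30, edgeR adjusted p = 0.00221). DNAJC6, the auxilin that uncoats clathrin vesicles mainly in neurons, averaged 21.4 ± 0.680 CPM with celastrol and 22.1 ± 0.701 CPM in controls (log2 fold change -0.05, edgeR adjusted p = 0.694). DNAJC5G averaged 0.295 CPM with celastrol and 0.174 CPM in controls and did not pass the test (edgeR adjusted p = 0.455). Summed vesicle levels were 75.5, 76.7 and 75.7 FPKM with celastrol, against 59.5, 48.4 and 47.7 FPKM in controls.

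Neither DNAJB13 nor DNAJC22 was placed in a compartment. DNAJB13 had 2, 5 and 3 counts with celastrol and 6, 0 and 5 counts in controls and was not tested. DNAJC22 averaged 15.8 ± 0.942 CPM with celastrol and 16.8 ± 0.558 CPM in controls (SD, n = 3 each, log2 fold change -0.09, edgeR adjusted p = 0.524).

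**Figure D3:**
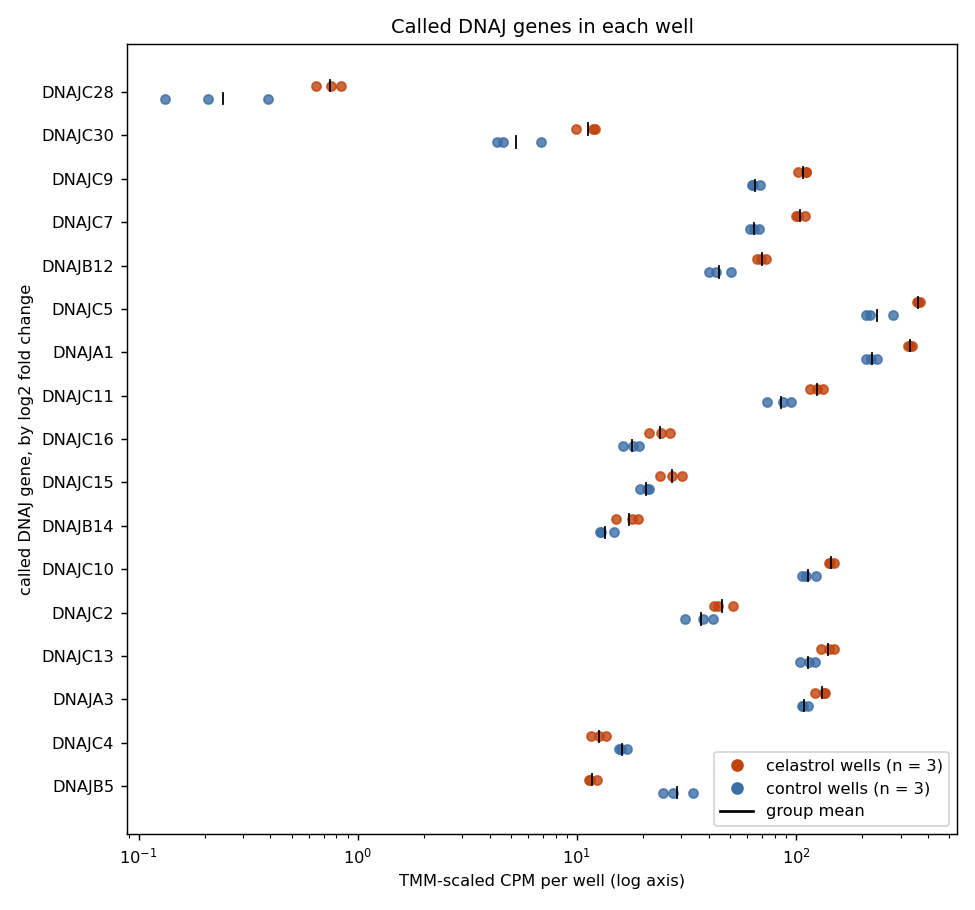
TMM-scaled CPM per well (log axis) of the 17 DNAJ genes called changed, with celastrol wells above control wells in each row and a black tick at the mean of 3 wells. The wells do not overlap in any of the 17 genes, but these were called on the same wells, so this adds no support. Of all genes tested, 28.4% were higher and 28.6% lower without overlap. DNAJC5 and DNAJA1 are the highest and DNAJC28 is the lowest, at a mean of 0.748 CPM with celastrol and 0.243 CPM in controls.

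Summed over all 42 members, the family held 782, 778 and 808 FPKM with celastrol, against 611, 624 and 667 FPKM in controls, without overlap. Class C held 395, 389.7 and 406 FPKM with celastrol, against 305, 295 and 302 FPKM in controls, and so was the largest class in both groups. DNAJA1 alone made up 18.3 ± 0.226% of the family with celastrol and 14.8 ± 0.545% in controls (SD, n = 3 each). DNAJB11 had rank 2 in both groups, at 59.2 FPKM with celastrol and 53.3 FPKM in controls. DNAJB1 had rank 10 with celastrol and rank 6 in controls, while DNAJA2 had rank 8 with celastrol and rank 4 in controls.

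**Figure D4:**
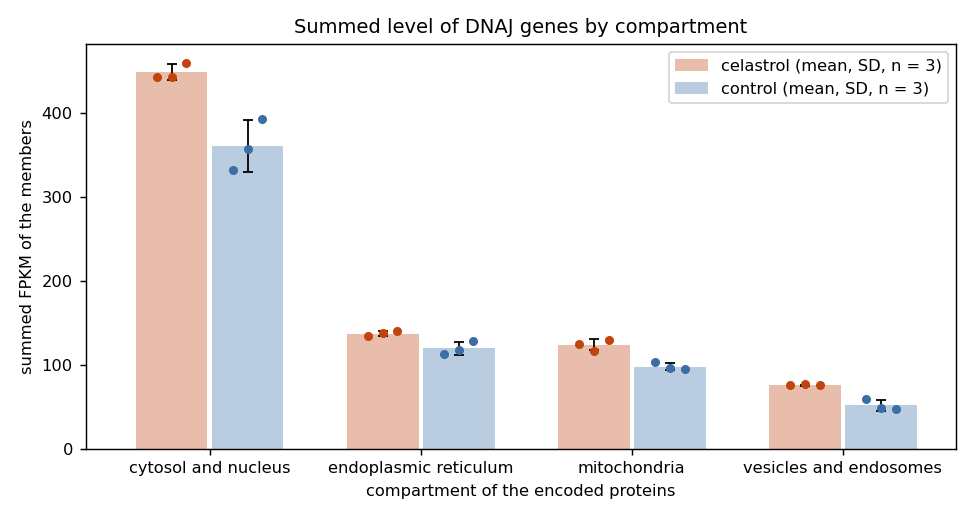
Summed FPKM of the DNAJ genes of each compartment (bars show the mean, error bars the SD and points the 3 wells per group, with celastrol left of control). Celastrol wells lie above control wells in all 4 compartments, at 75.5 to 76.7 FPKM with celastrol against 47.7 to 59.5 FPKM in controls on vesicles and endosomes. These FPKM are not TMM-scaled. In summed TMM-scaled CPM the cytosol and nucleus groups nearly touch, at 1166.2 in celastrol replicate 1 and 1165.7 in control replicate 3.

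The partners of the DNAJ proteins were read from the same fit, as 7 lists of 57 genes. Of the 55 tested, 23 were higher and 4 lower, with a median log2 fold change of 0.142. Over all genes tested 23.6% were higher and 24.8% lower, which is the background of this count and of each list below. HSPA8, the constitutive cytosolic HSP70 that most DNAJ proteins of the cytosol serve, held 5210.3, 5515 and 5548 CPM with celastrol, against 3976, 3708 and 4194 CPM in controls (log2 fold change 0.45 ± 0.052, SE, edgeR adjusted p = 1.5e-06). HSPA9, the mitochondrial HSP70 and partner of DNAJA3, averaged 546 ± 29.8 CPM with celastrol and 411 ± 13.04 CPM in controls (SD, n = 3 each, log2 fold change 0.41, edgeR adjusted p = 1.28e-05). HSPA14, the ribosome partner of DNAJC2, averaged 27.9 ± 1.14 CPM with celastrol and 18.9 ± 2.19 CPM in controls (log2 fold change 0.56, edgeR adjusted p = 0.000313). HSPA13 was the other of the 4 HSP70 genes of 9 tested that rose (log2 fold change 0.49, edgeR adjusted p = 0.000187). HSPA5, the BiP of the ER lumen, held 601, 637 and 618 CPM with celastrol, against 641, 921 and 1188 CPM in controls. All control wells of HSPA5 were higher than the celastrol wells but spread widely, with control replicate 3 the highest, and the log2 fold change of -0.57 ± 0.25 did not pass the test (SE, edgeR adjusted p = 0.13). HSPA5 passed as lower with DESeq2 (adjusted p = 0.048), with limma on log2(FPKM + 0.1) (0.0465), without control replicate 1 (2.67e-05) and without both celastrol replicate 2 and control replicate 1 (4.94e-05), in a range over alternatives of 2.67e-05 to 0.276. HSPA1B, not called with all wells (edgeR adjusted p = 0.0954), passed as lower with DESeq2 (0.021), with both limma fits (0.0249 and 0.0208) and without control replicate 3 (0.000564), in a range of 0.000564 to 0.229.

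Among exchange factors and other HSP70 cochaperones, 6 of 17 rose and 1 fell. BAG1, which releases nucleotide from HSP70, averaged 97.8 ± 4.92 CPM with celastrol and 58.7 ± 2.91 CPM in controls (SD, n = 3 each, log2 fold change 0.74, edgeR adjusted p = 2.55e-07). HSPBP1, another exchange factor, had a log2 fold change of 0.65 and SGTA, a cochaperone of tail-anchored proteins, one of 0.54 (edgeR adjusted p = 3.6e-06 and 5.94e-05). SIL1, the exchange factor of BiP, was the 1 that fell and is named after its value was seen, at 26.2 ± 2.12 CPM with celastrol and 35.9 ± 1.62 CPM in controls (log2 fold change -0.46, edgeR adjusted p = 0.000592). Of 4 J-domain proteins without a DNAJ symbol 2 rose, HSCB of iron-sulfur cluster assembly (0.42, edgeR adjusted p = 0.0231) and SEC63 of ER import (0.25, edgeR adjusted p = 0.00359).

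Partners of single members gave the following counts. In mitochondrial import, where DNAJC15 and DNAJC19 act, 5 of 6 tested rose, led by TIMM44, which tethers the mitochondrial HSP70 to the import channel, at 86.5 ± 7.42 CPM with celastrol and 52.7 ± 5.88 CPM in controls (SD, n = 3 each, log2 fold change 0.72, edgeR adjusted p = 3.77e-06). TIMM21 and TIMM17A had log2 fold changes of 0.40 and 0.28 (edgeR adjusted p = 0.000634 and 0.00556). In the membrane bridge with DNAJC11, 2 of 7 rose, MTX1 (0.57, edgeR adjusted p = 0.0144) and SAMM50 (0.32, edgeR adjusted p = 0.00307), and CHCHD6 fell (-0.50, edgeR adjusted p = 0.003). In diphthamide synthesis with DNAJC24, which itself had a log2 fold change of 0.09, 3 of 6 rose and 1 fell. DPH1 and DPH2 were each 0.56 higher on the log2 scale and DPH6 was at -0.47 (edgeR adjusted p = 0.000125, 0.000119 and 0.00349).

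Of 6 transcription factors of chaperone genes, 1 rose and 1 fell. ATF4, a factor of the integrated stress response, averaged 741 ± 64.4 CPM with celastrol and 513 ± 31.3 CPM in controls (SD, n = 3 each, log2 fold change 0.53, edgeR adjusted p = 4.05e-06). HSF2 averaged 16.99 ± 0.367 CPM with celastrol and 25.1 ± 3.29 CPM in controls (log2 fold change -0.57, edgeR adjusted p = 0.000471). HSF1 averaged 109.7 CPM with celastrol and 109.6 CPM in controls, with a log2 fold change of 0.00 (edgeR adjusted p = 0.982). HSF1 is controlled largely as a protein, which these libraries do not measure.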

How the data were processed

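RNA was measured in 6 poly(A) libraries of 143B cells, 3 with celastrol and 3 controls, made with a strand-marking protocol per the labels. The submitters' processing notes name the build hg38 and, beside edgeR and DESeq2, StringTie 2.1.6, HISAT2 2.2.1 and cutadapt 1.9. The sources used here do not give their settings, the annotation release or the use of strand in counting. The deposited values are raw read counts for 22481 genes, and the authors' FPKM values follow from these counts, 1 gene length in all 20198 genes compared (within 1e-06) and the library total.

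Counts were filtered with filterByExpr, scaled by TMM and compared with edgeR 4.0.16 (quasi-likelihood, robust, R 4.3.3), with Benjamini-Hochberg adjustment over 15387 genes and calls at an adjusted p under 0.05. CPM values are TMM-scaled and FPKM values are as deposited. SEs of log2 fold changes follow from the square root of each F statistic. Every pair of libraries within a group differed by more than sampling noise, so each counted once. Alternatives were other scalings and filters, DESeq2 1.42.0, limma 3.58.1 on log2 FPKM, a replicate block and leaving out wells.

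Values per well are given for called members with a log2 CPM of at least 2, up to 10 per direction, and for DNAJA1, DNAJA3, DNAJB1, DNAJB6, DNAJB9, DNAJB11, DNAJC3 and DNAJC19. From each partner list at most the 3 called genes with the largest change are named, beside HSPA5, HSPA8 and HSPA9. SIL1, HSF1, HSPA6, HSPA1A, HSPA1B and HSPH1 fall outside this rule and were picked with their values in view. Members, lists and compartments were chosen with earlier results of these data known. Coordinates and promoters are from RefSeq (GRCh38.p14) and exon overlaps from GENCODE 29.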

Additional observations from a re-analysis of the deposited data

How the results depend on the processing

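Of 17 calls in the family, 12 held in all 15 alternatives, and no member reversed. DNAJB14, DNAJC2, DNAJC4, DNAJC15 and DNAJC28 were lost only by leaving out wells. Of 23 members not called, 14 stayed so throughout. The median ran from 0.127 to 0.225 in the family, 0.024 to 0.214 in class B, 0.020 to 0.214 in the ER and 0.201 to 0.560 on vesicles. Scaling by library size alone moved the median of all genes by 0.041 on the log2 scale. With it, 27.1% of all genes tested were higher and 22% lower. The limma fits on log2 FPKM share that scaling, since FPKM are not TMM-scaled.

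Without celastrol replicate 2 and control replicate 1 together, 25.9% of all genes tested were lower and 25.4% higher. Lower calls then numbered 6 in the family, 2 in class A, 3 in class C, 4 in the cytosol and nucleus, 1 in the ER and 7 among partners. Higher calls in class B then numbered 1. With limma on log2(FPKM + 1) or log2(FPKM + 0.1), higher calls in the cytosol and nucleus numbered 7 (26% of all genes). In edgeR they numbered 4, and 2 when the members that share exons with opposite-strand genes, DNAJC7 and DNAJC9 among them, were not counted. Placing members only by a deposited term, which drops DNAJC4, left 0 lower calls in mitochondria by edgeR, since the log2 fold changes of the other 5 members were above 0 in every alternative, DESeq2 included, and so 0 were lower at an unadjusted p under 0.05. These last 2 alternatives were chosen after seeing the data. The cause of the other differences was not tested.

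Leaving out 1 well at a time gave 12 to 17 higher and 1 to 4 lower calls in the family, while all genes ran from 18.6% to 25.7% higher and from 19.9% to 25.8% lower. Class A had 2 to 2 higher and 0 to 2 lower calls, class B 1 to 3 higher and 1 to 1 lower, and class C 8 to 12 higher and 0 to 1 lower. The cytosol and nucleus had 3 to 6 higher and 1 to 3 lower, the ER 3 to 5 higher, the mitochondria 3 to 5 higher and 0 to 1 lower, and partners 17 to 26 higher and 4 to 6 lower. Where class C or mitochondria had 0 lower calls by edgeR, DNAJC4 was lower at an unadjusted p under 0.05 (0.0218 to 0.045). Where class A had 0, its count at an unadjusted p under 0.05 in all wells was also 0, and so was that of DESeq2.

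Among partner lists, 8 medians were below 0 in an alternative. The median of the HSP70 partners, 0.253 with 9 genes, was -0.138 without the filter on low counts and lay between -0.217 and -0.021 when celastrol replicate 1, celastrol replicate 3, control replicate 1 or control replicate 2 was left out, all with HSPA6 tested as well (10 genes). The exchange factors had -0.011 without control replicate 1 and -0.003 without both celastrol replicate 2 and control replicate 1, and the membrane bridge had -0.020 at 10 CPM or more in 3 libraries. With all wells, HSP70 partners lower numbered 0 in edgeR, also at an unadjusted p under 0.05, against 2 with DESeq2. They numbered 1 with limma on log2(FPKM + 1) and 2 on log2(FPKM + 0.1). In edgeR they numbered 1 without control replicate 1 and 1 without control replicate 3. Without both celastrol replicate 2 and control replicate 1 they also numbered 1.

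Whether equal replicate numbers mark pairs was not tested. Deviations of same-numbered wells correlated at 0.0582, 0.0549 and 0.0341, and those of differently numbered wells at -0.0625 to 0.00526. Each celastrol well correlated best with the control well of its own number, though all these values were small. With the replicate block, 17 members were higher and 2 lower (24.9% and 25.5% of all genes).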

Other observations

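The table holds 4 non-coding genes named after DNAJ genes. DNAJC3-DT, named as a divergent transcript of DNAJC3, averaged 2.61 ± 0.320 CPM with celastrol and 3.69 ± 0.203 CPM in controls (SD, n = 3 each), with a log2 fold change of -0.50 that missed the threshold (edgeR adjusted p = 0.068), while DNAJC3 itself was at 0.12. DNAJC9-AS1, on the opposite strand of DNAJC9, averaged 6.60 ± 0.605 CPM with celastrol and 6.08 ± 0.680 CPM in controls (log2 fold change 0.12, edgeR adjusted p = 0.582). Because strand use in counting is not known, reads of DNAJC9 and DNAJC9-AS1 cannot be told apart where they overlap. DNAJB5-DT had 0, 1 and 0 counts with celastrol and 1, 1 and 6 counts in controls. DNAJC27-AS1 had 6, 3 and 10 counts with celastrol and 18, 7 and 10 counts in controls, and neither was tested.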
